A study of Mus musculus with 6 samples.

Results

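The genes described here are 42 cell cycle genes, given as a list of symbols. The rule of the list uses no value of these libraries, but the list was drawn up with earlier results of these data known. All 42 were rows of the count tables of every library, among 19349 gene symbols in all. They were split by role into 20 genes of mitosis (Mki67, Top2a, Birc5, Ube2c, Cenpf, Cenpa, Cenpe, Ccnb1, Ccnb2, Ccna2, Cdk1, Nusap1, Prc1, Stmn1, Tpx2, Aurka, Aurkb, Bub1, Plk1 and Cdc20), 12 genes of DNA replication or S phase (Mcm2 to Mcm7, Pcna, Rrm1, Rrm2, Tyms, Tk1 and Uhrf1), 4 genes active around entry into S phase (Ccne1, Ccne2, Cdk2 and Ezh2), the 3 D-type cyclins (Ccnd1, Ccnd2 and Ccnd3) and 3 inhibitors of cyclin-dependent kinases (Cdkn1a, Cdkn1b and Cdkn2c).

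A cell that leaves quiescence first makes D-type cyclins, which bind Cdk4 and Cdk6 and start the phosphorylation of the retinoblastoma protein. E2F factors are then released and switch on the genes of S phase, among them the Mcm helicase subunits and the enzymes that make deoxynucleotides. The genes of mitosis follow later in the cycle, when the DREAM repressor gives way to B-Myb and FoxM1. In adult liver most cells rest, and the non-parenchymal fraction (endothelial cells, macrophages and lymphocytes) holds few dividing cells at any time.

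The libraries were 6 droplet single-cell RNA-seq libraries of liver non-parenchymal cells from male C57BL/6J mice with steatohepatitis brought on by a high-fat diet. Mice were 8 weeks old at the start and ate the diet for 24 weeks, and in the last 8 weeks they received either vehicle (DMSO) or ginkgetin, a plant biflavone, at 10 mg/kg/day by the intragastric route. The 3 vehicle libraries are called Control and the 3 treated ones Ginkgetin, and both groups ate the diet, so no lean liver enters any comparison. The labels do not say whether a library is 1 mouse or a pool, so p-values measure the spread between libraries.

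Libraries held 13128697 to 61796882 UMIs (unique molecular identifiers, 1 for each captured transcript molecule) in the deposited tables. Of 33168 barcodes, 27544 had 250 to 5000 genes detected and less than 5% mitochondrial UMIs and were kept. Cells were clustered without the 42 members and without 105 further cell cycle genes, so the classes below did not use the genes described, although 1 cluster of 32 endothelial-like cells, all from Ginkgetin, was led by other genes of dividing cells (Hist1h2ap, Esco2 and Iqgap3). Of 36 clusters, 31 were given a class from fixed markers, and 5 clusters with 2924 cells (10.6%), with fewer than 3 markers detected or with more markers of another class than of their own among their leading genes, stayed unnamed and were left out of the class comparisons. A pair of these was nearest to endothelial cells, a cluster of 925 cells led by Wnt2, Kit and Pde2a, with 275 and 634 of them from Ginkgetin replicates 1 and 2, and one of 774 cells led by Edn1, Adgrg6 and Vwf. The 10 classes were macrophage-like (6818 cells), endothelial-like (6367), T cell-like (5365), B cell-like (2633), dendritic-like (996), hepatocyte-like (563), cholangiocyte-like (558), plasma cell-like (546), NK cell-like (488) and stellate-like (286). The macrophage-like class was fixed to hold monocytes too, and 3 of its clusters, with 2732 cells (40.1% of the class, 24.6% to 52% by library), were led by genes of monocytes such as Plac8, F13a1 and Cd300e. The stellate-like class held a cluster of 105 cells with 5 of its markers detected but none of them among its leading genes (Gsn, Igfbp6, Dpt, Clec3b and C3 among others), which made up 8 to 33 cells of each library and 20 of 26 in Control replicate 1, so some results on that class, though not all, are also given without it, an alternative chosen after seeing the data. Replicate 3 of both groups carried another set of barcodes than replicates 1 and 2 and was the deepest of its group, with a median of 8412 UMIs per cell in Control and 6262 in Ginkgetin against 2483 to 4365 in the other libraries. Symbols differed between these sets too, with UMIs of 1236 symbols in replicate 3 alone and of 442 in replicates 1 and 2 alone, none of them members. Cells of a class fell into clusters by both group and barcode set. In replicates 1 and 2 an Ehd3- and Pde2a-led endothelial-like cluster held 903 and 2253 Ginkgetin cells against 8 and 29 of Control, and a Fabp4- and Lyve1-led one 31 and 31 against 1057 and 464. In replicate 3 a Selenop- and Cavin2-led cluster held 1000 Ginkgetin cells against 15 of Control, and a Cavin2- and Vwf-led one 141 against 381, and both were absent from the other libraries. Among macrophage-like cells a Marco- and Cd163-led cluster held 523 cells of Ginkgetin replicate 3, 7 of Control replicate 3 and none of the other libraries, and a cluster led by Pf4, Ms4a7 and Trem2 held 17 and 43 Ginkgetin cells in replicates 1 and 2 against 606 and 374 of Control.

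The promoters of the members are shown first, to set the mitotic beside the S-phase genes. RefSeq promoter windows (GRCm38.p6, 300 bases, 250 before to 50 after a transcription start) were given for 34 of the 42 members, in 40 windows. Both strands were searched for the cell cycle homology region, called CHR (TTTGAA), for the CCAAT box (CCAAT) and for E2F sites (TTTGGCGC, TTTCCCGC, TTTGCCGC or TTTCGCGC), and E2F matches that overlapped each other were counted separately. A CHR was found in 12 of 17 windows of mitotic members (70.6%), in 1 of 13 windows of S-phase members (7.69%) and in 17.9% of all 32851 windows. E2F letters were found in 1 of 17 mitotic windows (5.88%), in 5 of 13 S-phase windows (38.5%) and in 2.26% of all windows. A CCAAT box stood in 88.2% of mitotic, 84.6% of S-phase and 37.4% of all windows. The windows of the 3 CDK inhibitors and of Ccnd3, the 1 D-type cyclin in the table, held no CHR and no E2F letters. These matches are a description of letters and show no binding.

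The following windows show the contrast, with 3 mitotic members (cyclin B2, topoisomerase II alpha and the mitotic kinase Cdk1), 2 subunits of the replicative helicase (Mcm6, Mcm5), and thymidine kinase Tk1, the member with the largest fall over all cells. They read 5′ to 3′ along the gene's strand, and capitals mark every CHR, CCAAT and E2F match on either strand.
Ccnb2 (chr9:70421505-70421804, minus strand): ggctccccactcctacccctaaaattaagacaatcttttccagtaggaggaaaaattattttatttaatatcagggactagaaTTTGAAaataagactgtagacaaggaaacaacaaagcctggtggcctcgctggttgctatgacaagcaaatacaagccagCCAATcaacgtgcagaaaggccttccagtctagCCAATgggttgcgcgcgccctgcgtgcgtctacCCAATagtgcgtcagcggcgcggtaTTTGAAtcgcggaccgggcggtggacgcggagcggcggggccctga
Top2a (chr11:99024140-99024439, minus strand): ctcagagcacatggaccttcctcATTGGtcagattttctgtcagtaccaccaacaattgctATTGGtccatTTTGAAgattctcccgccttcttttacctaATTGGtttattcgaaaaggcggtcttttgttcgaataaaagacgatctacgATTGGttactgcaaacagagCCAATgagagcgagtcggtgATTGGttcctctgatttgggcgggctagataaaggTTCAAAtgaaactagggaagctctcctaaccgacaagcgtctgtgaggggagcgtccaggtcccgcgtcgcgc
Cdk1 (chr10:69352863-69353162, minus strand): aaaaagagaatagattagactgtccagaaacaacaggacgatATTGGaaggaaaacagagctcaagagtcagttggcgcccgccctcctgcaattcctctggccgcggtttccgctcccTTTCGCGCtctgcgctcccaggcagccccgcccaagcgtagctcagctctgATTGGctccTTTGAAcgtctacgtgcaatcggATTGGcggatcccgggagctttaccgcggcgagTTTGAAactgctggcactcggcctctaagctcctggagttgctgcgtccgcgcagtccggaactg
Mcm6 (chr1:128359656-128359955, minus strand): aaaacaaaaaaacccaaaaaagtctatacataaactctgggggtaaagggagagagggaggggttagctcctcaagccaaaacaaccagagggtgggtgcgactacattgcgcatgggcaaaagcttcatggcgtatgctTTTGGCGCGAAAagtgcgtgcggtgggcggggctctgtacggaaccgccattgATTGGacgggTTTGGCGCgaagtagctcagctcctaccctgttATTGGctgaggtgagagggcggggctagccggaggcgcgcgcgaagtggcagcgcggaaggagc
Mcm5 (chr8:75109259-75109558, plus strand): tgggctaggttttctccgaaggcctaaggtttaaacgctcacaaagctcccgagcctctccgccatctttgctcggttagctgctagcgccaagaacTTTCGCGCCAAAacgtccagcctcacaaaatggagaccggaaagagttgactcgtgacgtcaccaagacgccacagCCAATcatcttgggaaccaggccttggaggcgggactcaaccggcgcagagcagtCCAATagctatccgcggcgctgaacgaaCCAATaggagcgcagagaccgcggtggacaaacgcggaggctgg
Tk1 (chr11:117825965-117826264, minus strand): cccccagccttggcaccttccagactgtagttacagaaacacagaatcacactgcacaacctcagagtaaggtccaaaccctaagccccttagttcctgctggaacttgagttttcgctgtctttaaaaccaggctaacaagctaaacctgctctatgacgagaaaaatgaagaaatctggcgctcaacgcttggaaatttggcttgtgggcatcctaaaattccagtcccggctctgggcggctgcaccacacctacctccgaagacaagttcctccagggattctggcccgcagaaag
The Ccnb2 window held 2 CHR and 3 CCAAT matches, the Top2a window 2 and 6, and the Cdk1 window 2 and 3 with 1 E2F match. The Mcm6 window held 3 E2F and 2 CCAAT matches and the Mcm5 window 2 and 3, with no CHR in either. None of these letters stood in the Tk1 window.

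The first comparison asked which cells of the liver carried the cell cycle programme. UMIs were summed per library and class and scaled to 1000000 UMIs (counts per 1000000, CPM), and each gene was compared with itself across classes, since a 3′ UMI count does not compare levels between genes. Of the 20 mitotic members, 10 had their highest mean level in dendritic-like cells and 8 in plasma cell-like cells. The summed level of the 20 ran from 322 to 1397 CPM over the 6 libraries in dendritic-like cells and from 515 to 1356 CPM in plasma cell-like cells. It ran from 337 to 1315 CPM in T cell-like, 278 to 504 CPM in endothelial-like, 204 to 518 CPM in macrophage-like and 106 to 408 CPM in B cell-like cells. The lowest mean was that of stellate-like cells, with 34.1 to 91.0 CPM in 5 libraries and 384 CPM in Control replicate 1. Without the cluster led by Gsn the stellate-like class was no longer lowest, with 24 to 151 CPM in 5 libraries and 1002 CPM in the 6 cells of Control replicate 1. The order of dendritic-like and plasma cell-like cells depended on a small number of cells. With clusters made from all genes, an alternative chosen after seeing the data, a cluster of 277 cells led by Hist1h2ap and other genes of dividing cells took the name of dendritic-like cells, and it held 119 of the 996 dendritic-like, 38 of the 546 plasma cell-like and 82 of the 6367 endothelial-like cells described here. Then 19 of the 20 mitotic members were highest in the dendritic-like class and none in plasma cell-like cells, whose summed level was 40.4 to 499.8 CPM, and that of endothelial-like cells was 111 to 142 CPM. The lowest mean was then that of B cell-like cells (101 CPM), with NK cell-like at 111 CPM and stellate-like cells at 113 CPM.

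Mki67, the antigen of the Ki-67 proliferation stain, was at 122 ± 22.2 CPM (SD, n = 6 libraries) in plasma cell-like cells, 74.6 ± 32 in dendritic-like, 52.9 ± 29.7 in T cell-like, 19.8 ± 4.65 in macrophage-like and 19.3 ± 7.42 in endothelial-like cells. Plasma cell-like cells stood above dendritic-like cells in 5 of 6 libraries, but with clusters made from all genes the order turned (36.7 ± 16 against 113 ± 40.1 CPM). The ranges of dendritic-like and T cell-like cells overlapped, as did those of macrophage-like and endothelial-like cells, where clusters made from all genes gave 18.6 ± 6.40 and 1.19 ± 0.97 CPM. Stellate-like cells were at the bottom, with 1.72 ± 2.70 CPM, but at 3.62 ± 6.12 CPM, above hepatocyte-like cells (2.12 ± 3.26 CPM, n = 5), without the cluster led by Gsn. Median UMI counts per cell were 5842.5 to 26275 in the libraries of dendritic-like and plasma cell-like cells and 2696 to 6379 in those of T cell-like cells, and the part of depth in this order was not tested.

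**Figure D1:**
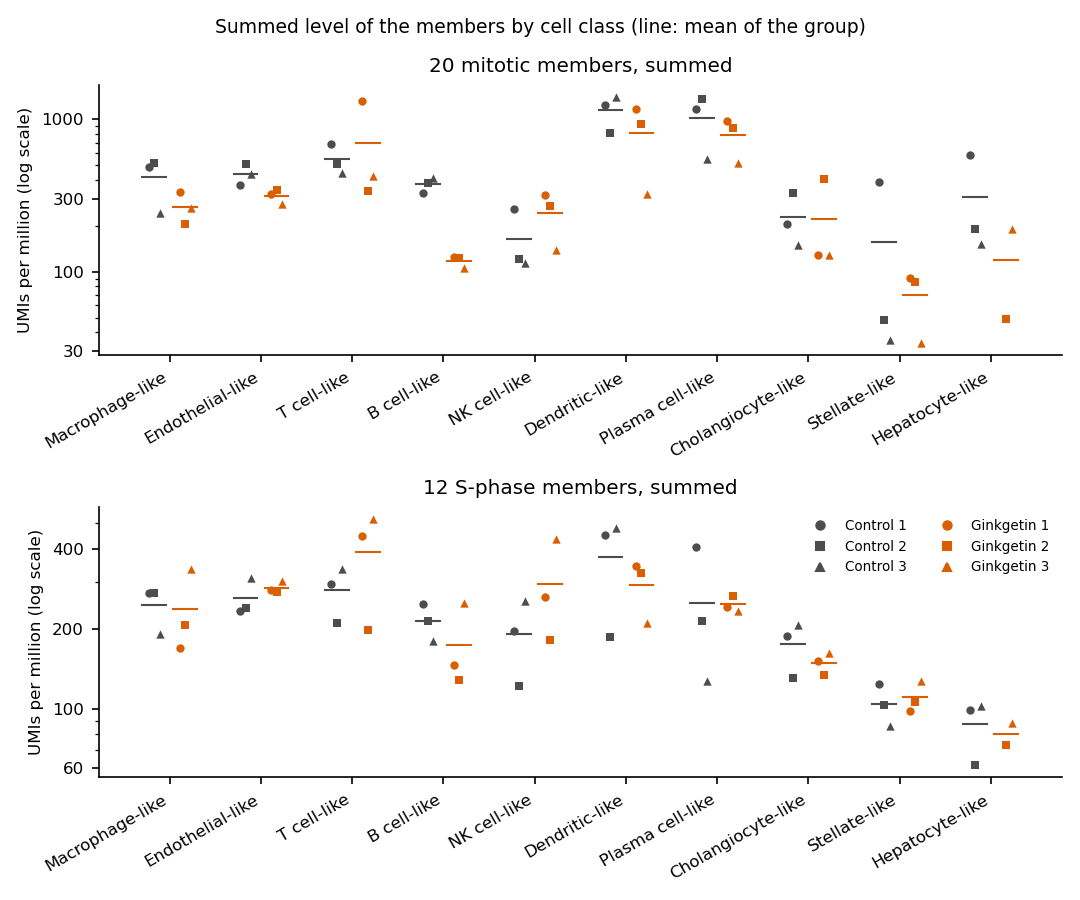
Summed level of the 20 mitotic members (top) and the 12 S-phase members (bottom) in CPM, on a log scale, for each library (circle, square and triangle for replicates 1, 2 and 3) in the 10 cell classes, with the group mean as a line. Mitotic levels are highest in dendritic-like and plasma cell-like cells, and the B cell-like Ginkgetin libraries (106 to 125) lie below those of Control (326 to 408), a gap that was gone when the clusters were made with all genes (96.3 to 106 against 89.9 to 114). Those clusters used the mitotic genes, and 7 B cell-like cells went to a cluster of dividing cells.

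The S-phase members were spread over more classes. Their highest mean levels fell in T cell-like cells for 3 genes, in dendritic-like cells for 3, in endothelial-like cells for 2, in macrophage-like cells for 2, and in NK cell-like and plasma cell-like cells for 1 each. With clusters made from all genes it was 5 in dendritic-like, 3 in T cell-like, 2 in macrophage-like, and 1 each in endothelial-like and NK cell-like cells. Mcm3, a helicase subunit, was highest in endothelial-like cells (70.1 ± 12.1 CPM, n = 6) and stood above dendritic-like cells, the next class, in 6 of 6 libraries. Pcna, the sliding clamp of the replicative polymerases, was at 74.2 ± 18.6 CPM in macrophage-like, 67.2 ± 26.1 in T cell-like and 62.8 ± 11.3 in endothelial-like cells, neighbours that did not differ beyond their spread, and at 31.3 ± 7.54 in stellate-like cells. Ezh2, the histone methyltransferase of Polycomb complex 2, was highest in dendritic-like cells (68.9 ± 11.6 CPM) and above T cell-like cells in 6 of 6 libraries. Ccne1, the cyclin of the Cdk2 kinase at S-phase entry, was highest in plasma cell-like cells (21.9 ± 16.3 CPM) and above T cell-like cells (7.58 ± 3.54 CPM) in 6 of 6.

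The ratio of S-phase to mitotic UMIs was taken for each class, and classes were not tested against each other. It was 0.23 to 0.65 in dendritic-like and 0.16 to 0.45 in plasma cell-like cells, and 0.48 to 1.09 in endothelial-like and 0.51 to 1.27 in macrophage-like cells. The range of dendritic-like cells overlapped those of endothelial-like and macrophage-like cells. In endothelial-like cells the ratio was 0.63, 0.48 and 0.71 in Control replicates 1 to 3 and 0.87, 0.81 and 1.09 in Ginkgetin, so that the groups did not overlap, whereas with clusters made from all genes they did (1.33, 1.55 and 2.15 against 2.17, 1.98 and 2.54). In B cell-like cells it was 0.76, 0.56 and 0.44 in Control and 1.17, 1.04 and 2.34 in Ginkgetin, again without overlap, but with clusters made from all genes, which left 5 fewer Control and 3 fewer Ginkgetin cells in the class, it was 1.53, 1.59 and 1.63 against 1.28, 1.27 and 2.34. That clustering used the mitotic genes and moved 82 endothelial-like and 7 B cell-like cells to the cluster of dividing cells. It also named as endothelial-like a cluster led by Wnt2, with 541 and 1237 cells of Ginkgetin replicates 1 and 2 against 5 and 13 of Control. A loss of mitotic UMIs was thus built in, and that clustering cannot decide whether the gaps hold. With the clusters used elsewhere here, the macrophage-like ratios overlapped, at 0.57, 0.53 and 0.79 against 0.51, 1.01 and 1.27, as did those of T cell-like cells, at 0.43, 0.42 and 0.76 against 0.34, 0.59 and 1.23. Replicate 3 had the highest ratio of its group in endothelial-like, macrophage-like and T cell-like cells. Stmn1 weighed on these ratios, and without it that of cholangiocyte-like cells in Control replicate 1 went from 0.91 to 10.3. The endothelial-like ratios without Stmn1 were 0.93, 0.63 and 0.88 in Control and 1.09, 0.99 and 1.25 in Ginkgetin.

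The D-type cyclins differed between classes in another order than the mitotic members. Ccnd1 was at 457 ± 65.8 CPM (SD, n = 6) in cholangiocyte-like, 321 ± 134 in endothelial-like, 277 ± 70.3 in dendritic-like and 86.8 ± 58.2 in macrophage-like cells, and at 5.51 ± 3.70 in T cell-like, 9.12 ± 6.38 in B cell-like and 7.46 ± 6.07 in NK cell-like cells. Ccnd2 was at 530.0 ± 109 CPM in NK cell-like and 511 ± 131 in T cell-like cells, at 371 ± 158 in endothelial-like cells and at 40.4 ± 18.2 in macrophage-like cells. Ccnd3 was highest in NK cell-like (288 ± 30.5 CPM) and T cell-like cells (242 ± 50.3 CPM), with 95 ± 8.10 in endothelial-like and 85.6 ± 18.6 in macrophage-like cells. T cell-like and NK cell-like cells were thus high for Ccnd2 and Ccnd3 and low for Ccnd1, and endothelial-like cells were high for Ccnd1 and Ccnd2.

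These differences were tested in pairs of classes within libraries, by a two-sided exact permutation test that flips the sign of the log2(CPM + 1) differences over the 6 libraries. The 9 classes present in all 6 libraries gave 36 pairs for each gene and 108 tests in all. The smallest exact p this design allows is 0.031, which became 0.0427 after Benjamini-Hochberg adjustment over the 108 tests, and that value was reached by 27 pairs for Ccnd1, 28 for Ccnd2 and 24 for Ccnd3. Among neighbours in the order, endothelial-like and dendritic-like cells did not differ in Ccnd1 beyond their spread (log2 difference 0.13 ± 0.56, SD, higher in 4 of 6 libraries, adjusted exact p = 0.629), nor did T cell-like and NK cell-like cells in Ccnd2 (-0.06 ± 0.21, higher in 2 of 6, adjusted exact p = 0.580). For Ccnd3, T cell-like cells were below NK cell-like cells in 5 of 6 libraries, by a log2 difference of -0.26 ± 0.20 with an adjusted exact p of 0.0785.

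**Figure D2:**
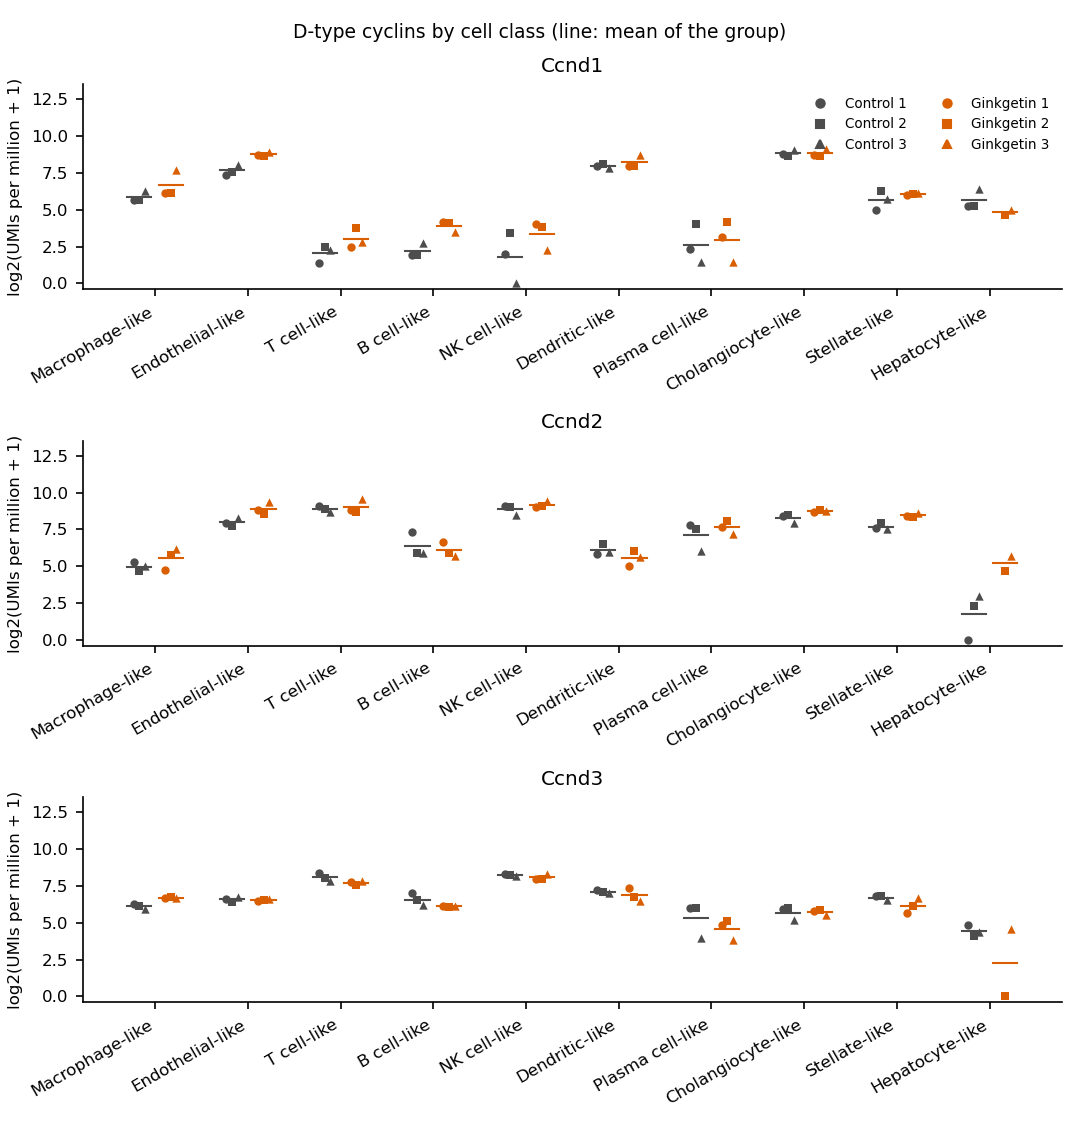
Level of the 3 D-type cyclins as log2(CPM + 1) for each library in each class, with the group mean as a line. Ccnd1 separates cholangiocyte-like, endothelial-like and dendritic-like cells (means of 277 to 457 CPM) from T cell-like, B cell-like and NK cell-like cells (5.51 to 9.12), whereas Ccnd2 and Ccnd3 are highest in T cell-like and NK cell-like cells.

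The inhibitors also differed by class. Cdkn1a, which encodes p21, a target of p53, was highest in endothelial-like (219 ± 76.5 CPM, n = 6) and macrophage-like cells (149 ± 44.5 CPM) and low in T cell-like (24.1 ± 13.7 CPM) and B cell-like cells (10.7 ± 3.95 CPM). Cdkn1b, encoding p27, was highest in T cell-like (133 ± 42.6 CPM) and B cell-like cells (111 ± 44.2 CPM), with T cell-like above B cell-like in 4 of 6 libraries. Cdkn2c, encoding p18, was at 53 ± 23 CPM in stellate-like (66.4 ± 24.6 without the cluster led by Gsn) and 7.52 ± 1.30 CPM in B cell-like cells.

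The second comparison asked whether the members differed between Ginkgetin and Control. Differences were tested on summed counts by edgeR's quasi-likelihood test over all genes that passed a filter on low counts, and a gene was called where its Benjamini-Hochberg adjusted p was below 0.05 and its change more than 2-fold. Fold changes are log2 of Ginkgetin over Control after TMM normalization, with their SE. TMM sets the median gene near 0, whereas the plain CPM ratio of the median gene was above 0 by 0.32 (log2) in macrophage-like cells, 0.15 in endothelial-like cells and 0.35 over all cells, so that directions below are relative to that shift. Since replicates with the same number deviated together, each count was also made with the replicate number as a block.

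Over all kept cells, 2 of the 42 members were called, against 12.8% of all 14240 genes tested. Tk1, the salvage enzyme of thymidine, was at 30.2, 25.7 and 14.5 CPM in Control and 9.26, 6.52 and 7.49 CPM in Ginkgetin. Every Ginkgetin value lay below every Control value, which alone is common over all cells (8 of the 42 members and 41.5% of all genes tested did not overlap between groups), and Tk1 fell by 1.90 on the log2 scale (SE 0.37, edgeR adjusted p = 0.0191). Ccnd2 was at 168, 141 and 106 CPM in Control and 344, 294 and 448 CPM in Ginkgetin. The groups did not overlap, and Ccnd2 rose (log2 fold change 1.05, SE 0.25, edgeR adjusted p = 0.0327). Ccnd1, at 90.7, 93.5 and 92.5 CPM in Control and 171, 199 and 253 CPM in Ginkgetin, passed on p but not on the 2-fold limit (0.84, SE 0.13, edgeR adjusted p = 0.0104). In a sum over all cells, more cells of a type and more RNA per cell cannot be told apart. Endothelial-like cells, high in both cyclins, numbered 414 to 1065 in each Control library and 945 to 2304 in each Ginkgetin library, and macrophage-like cells 1242 to 2233 and 225 to 753.

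Within barcode sets the 3 differences kept their sign. The log2 CPM ratio of Tk1 was -1.83 in replicates 1 and 2 and -0.96 in replicate 3, that of Ccnd2 was 1.04 and 2.08, and that of Ccnd1 was 1.01 and 1.45. Leaving out single libraries ended both calls. Tk1 was no longer called without Control replicate 1 (-1.64, edgeR adjusted p = 0.0885), Control replicate 2 (-1.83, 0.0949) or Ginkgetin replicate 2 (-1.85, 0.0968), where the adjusted p of Tk1 ran from 7.52e-06 to 0.795 over 15 alternatives. Ccnd2 was no longer called without any one of the 6 libraries (0.87 to 1.24, edgeR adjusted p = 0.0670 to 0.134), against 0.000526 to 0.909 over 15 alternatives in all. In cells of 250 to 5000 UMIs, as the study's filter can also be read, neither was called, with log2 fold changes of -0.29 for Tk1 and 0.11 for Ccnd2.

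Tyms, thymidylate synthase, was at 21.2, 12.8 and 14.2 CPM in Control and 12.2, 6.48 and 9.64 CPM in Ginkgetin over all cells, without overlap (-1.07, SE 0.36, edgeR adjusted p = 0.086). With the replicate block, 3 members were called (Tk1, Tyms and Ccnd2) against 17.3% of all genes. Mki67 was at 25.2, 24.7 and 30.8 CPM in Control and 56.8, 25.5 and 42.3 CPM in Ginkgetin, with overlap (0.35, SE 0.34, edgeR adjusted p = 0.518). Stmn1, the microtubule-destabilizing protein stathmin, was at 160.4, 136 and 91.6 CPM in Control and 120.3, 71.1 and 59 CPM in Ginkgetin, also with overlap (-0.88, SE 0.44, edgeR adjusted p = 0.21). As groups the members had no common direction over all cells. Of the 20 mitotic members, 8 had a log2 fold change above 0 and 12 below, with a median of -0.13 beside 0.04 for all genes tested, while 12 of the 20 had a plain CPM ratio above 1. The S-phase members split 6 and 6, with a median of 0.03, while 10 of the 12 had a plain CPM ratio above 1 (median log2 ratio 0.29 beside 0.35 for all genes).

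**Figure D3:**
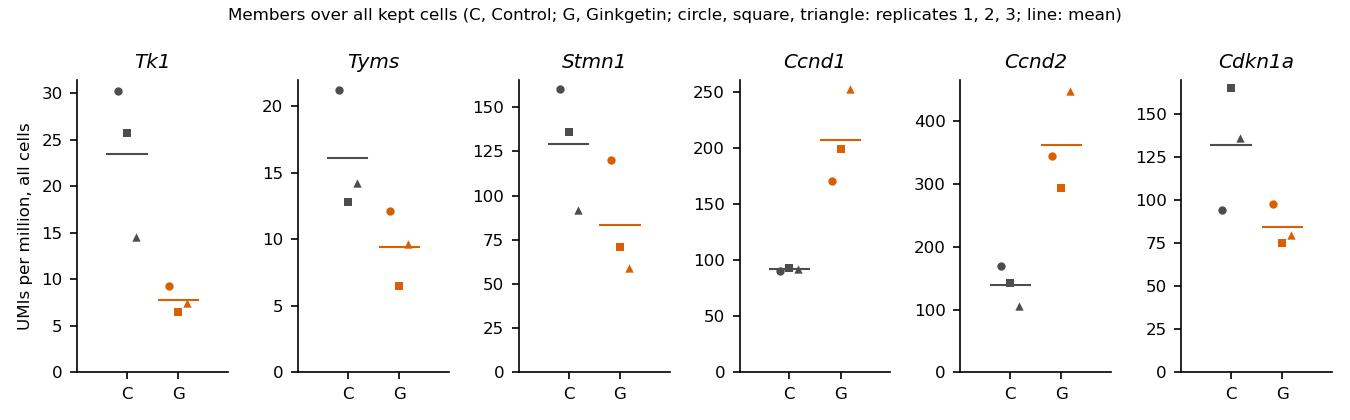
Level of 6 members over all kept cells in CPM, 1 point for each library (C, Control; G, Ginkgetin), with the group mean as a line and the axis from 0. Tk1 and Tyms lie lower and Ccnd1 and Ccnd2 higher in every Ginkgetin library than in any Control library, while Stmn1 and Cdkn1a overlap.

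In macrophage-like cells no member was called by edgeR, against 4.34% of the 10904 genes tested, while 11 members had an unadjusted p below 0.05, against 26.2% of all genes, and 8 did not overlap between groups, against 30.8%. DESeq2 called 4 members, all lower, against 8.31% of all genes. All 20 mitotic members had a log2 fold change below 0, with a median of -0.94, where 49.8% of all genes were below 0, and 17 of the 20 also had a plain CPM ratio below 1. Of the 12 S-phase members 8 were below 0, with a median of -0.24, but 8 of the 12 had a plain CPM ratio above 1 (median log2 ratio 0.11), and all 3 D-type cyclins were above 0, with a median of 0.34. With the replicate block, 7 of the 42 members were called, all lower in Ginkgetin, against 4.29% of all genes called lower. They were Stmn1, Cenpe, Ccnb1, Ccnb2 and Birc5 of the mitotic group and Tyms and Tk1 of the S-phase group, and with 1 library left out in turn and no block no member was called, where 5 of the 6 fits called no gene at all and the sixth 0.0569% of all genes. Without the clusters led by monocyte genes, an alternative chosen after seeing the data, 16 of the 20 mitotic members were below 0 (median -0.60) and the S-phase members split 6 and 6, and edgeR called Cdkn1b, which was higher (1.02, adjusted p = 0.0385), against 10.5% of all genes.

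Tyms had the lowest adjusted p among the macrophage-like members. It was at 19.4, 14.8 and 8.53 CPM in Control and 4.11, 5.86 and 4.70 CPM in Ginkgetin. The groups did not overlap (log2 fold change -1.90, SE 0.43, edgeR adjusted p = 0.0536, and 0.00432 to 0.238 over 17 alternatives). Tk1 was at 45, 43.5 and 19 CPM in Control and 12.3, 18.2 and 17.1 CPM in Ginkgetin, without overlap but with Control replicate 3 close to the treated libraries (-1.52, SE 0.41, edgeR adjusted p = 0.0764). Stmn1 was at 159, 165 and 72.1 CPM in Control and 77, 41.6 and 65.3 CPM in Ginkgetin. Control replicates 1 and 2 stood well above the other libraries, and the groups overlapped (-1.43, SE 0.44, edgeR adjusted p = 0.102).

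Birc5, encoding survivin of the chromosomal passenger complex, was at 39.6, 47.7 and 19.1 CPM in Control and 29.8, 8.80 and 9.40 CPM in Ginkgetin, with overlap (-1.53, SE 0.67, edgeR adjusted p = 0.206). Ccnb2 was at 16.4, 19 and 8.23 CPM against 10.3, 7.62 and 5.69 CPM, with overlap (-1.28, SE 0.49, edgeR adjusted p = 0.164). Cdk1 was at 32.2, 22.6 and 11.4 CPM against 20.5, 10.6 and 11.6 CPM, also with overlap (-1.0, SE 0.53, edgeR adjusted p = 0.283). In each of these genes Control replicate 3 was the lowest Control library. Cenpe, the kinesin that carries chromosomes to the spindle equator, was at 8.92, 13.2 and 7.85 CPM against 5.14, 4.10 and 6.43 CPM, without overlap (-1.28, SE 0.34, edgeR adjusted p = 0.073). Ccnb1, a cyclin partner of Cdk1, was at 7.57, 7.18 and 3.73 CPM against 3.08, 3.52 and 1.73 CPM, without overlap (-1.58, SE 0.54, edgeR adjusted p = 0.127). Mki67 (-0.37, SE 0.31) and Top2a (-0.20, SE 0.45), which decatenates sister chromatids, overlapped between groups, with edgeR adjusted p of 0.495 and 0.833.

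Among the remaining named members in macrophage-like cells, Cdkn1b had the lowest adjusted p. It was at 27.5, 39.6 and 57.5 CPM in Control and 75, 87.4 and 118 CPM in Ginkgetin, without overlap (0.86, SE 0.24, edgeR adjusted p = 0.0852). Pcna (-0.32, SE 0.28), Mcm5 (-0.29, SE 0.33), Mcm6 (0.13, SE 0.30), Ccne2 (0.03, SE 0.54) and Rrm2, the small subunit of ribonucleotide reductase (-0.20, SE 0.59), had edgeR adjusted p of 0.514 to 0.985. For Ccnd1 (0.59, SE 0.34), Ccnd2 (0.34, SE 0.29), Ccnd3 (0.24, SE 0.22), Cdkn1a (-0.30, SE 0.41) and Cdkn2c (-0.12, SE 0.41) it was 0.327 to 0.905.

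Several measurements moved with the macrophage-like values. Median UMIs per cell were 6600.5 to 12355 in Control and 2929 to 3793 in Ginkgetin. In cells of 250 to 5000 UMIs, 6 mitotic members passed the filter on low counts, 4 of them above 0 with a median of 0.31, and Stmn1 turned to 0.47. Within replicate 3, 11 of the 20 mitotic members had a CPM ratio above 1, with a median log2 ratio of 0.11 beside 0.47 for all genes, whereas in replicates 1 and 2 none did (median -0.76 beside 0.22). All 10 endothelial markers were higher in macrophage-like cells of Ginkgetin without overlap, none of them at 0, at a summed 576 to 1533 CPM against 148 to 182 CPM, and the 13 macrophage markers summed to 19026 to 24088 CPM against 30936 to 34099 CPM in Control. The part of depth, barcode set and these markers was not tested.

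**Figure D4:**
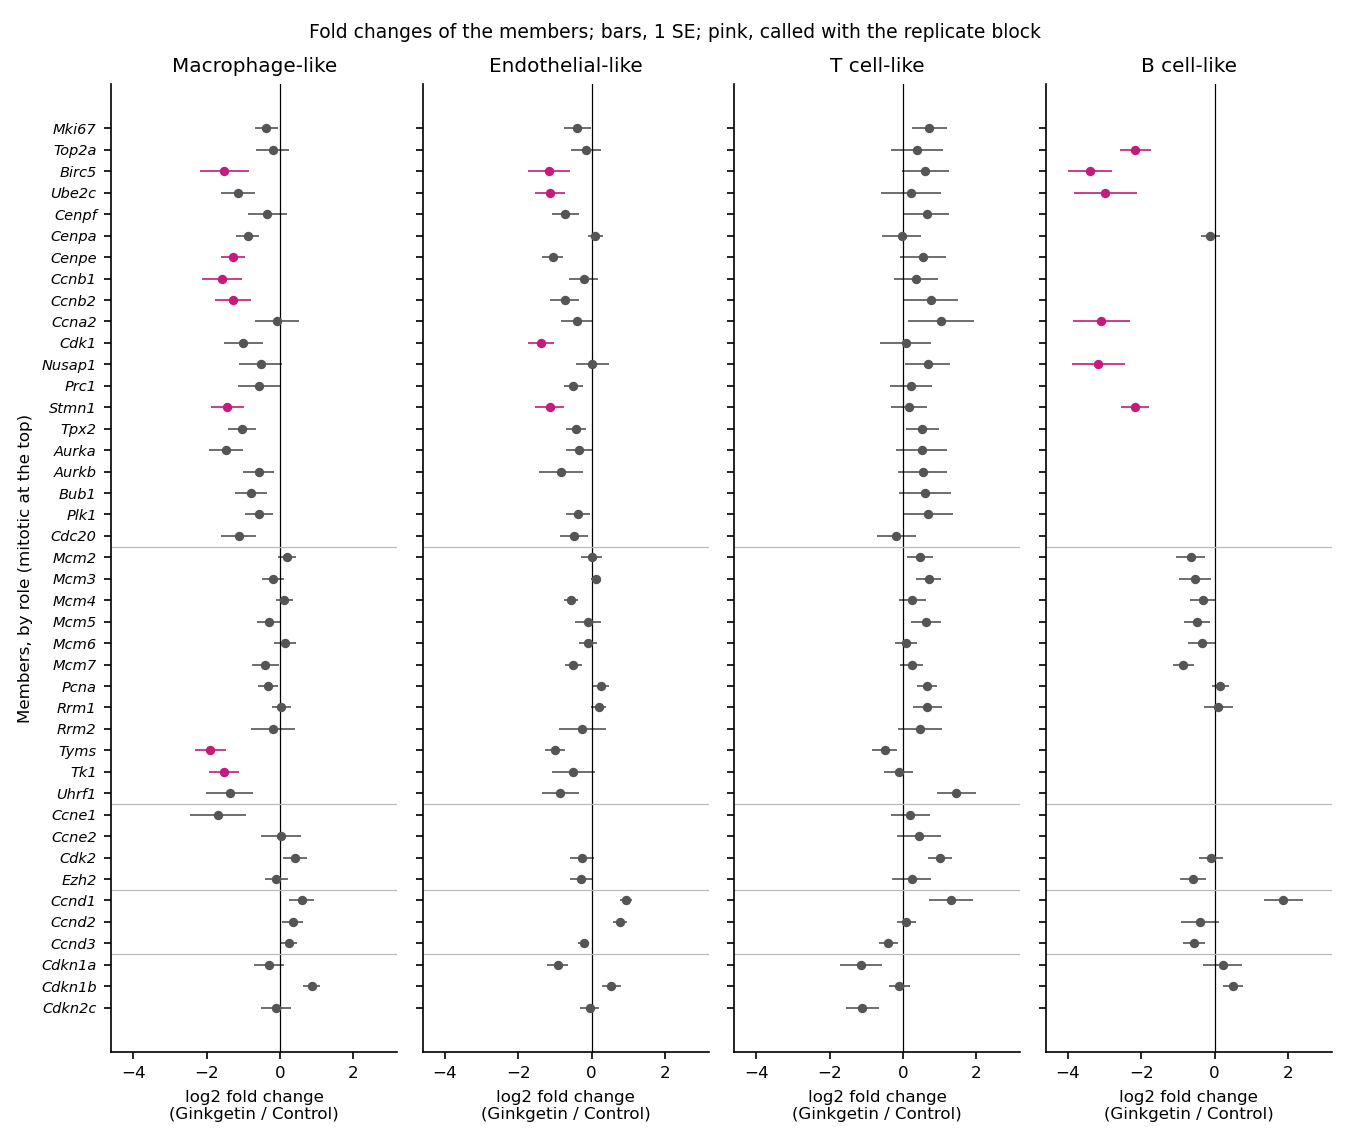
Log2 fold change (Ginkgetin over Control, bars of 1 SE) of each member that passed the filter on low counts in macrophage-like, endothelial-like, T cell-like and B cell-like cells, with roles parted by grey lines and pink for members called with the replicate block. All 20 mitotic members lie below 0 in macrophage-like cells and 18 of 20 above 0 in T cell-like cells, none of them called by edgeR without the block in these fits, and the 6 B cell-like calls rest on a few cells.

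In endothelial-like cells no member was called by edgeR, against 0.302% of 10281 genes tested, and 1 by DESeq2, against 2.53%. Of 39 members that passed the filter on low counts, 9 had an unadjusted p below 0.05, against 13.6% of all genes, and 8 did not overlap between groups, against 18.0%. Of 19 mitotic members 17 were below 0, with a median of -0.48 beside -0.01 for all genes, of which 50.9% were below 0. This direction turned without the cells of the highest doublet scores, where 9 of the 16 mitotic members that passed were above 0 with a median of 0.16, and with clusters made from all genes only 4 passed. With the 2 unnamed clusters nearest to the class added, an alternative chosen after seeing the data, 19 of 19 were below 0 (median -0.62) and edgeR again called no member, against 0.569% of all genes. Of the 12 S-phase members 8 were below 0 (median -0.18), and 6 of the 12 had a plain CPM ratio above 1. With the replicate block 4 members were called, Cdk1, Stmn1, Birc5 and Ube2c, all lower in Ginkgetin, against 2.93% of all genes called lower. Median log2 CPM ratios of the mitotic members were below 0 within both barcode sets, at -0.23 in replicates 1 and 2 (5 of 19 above 0) and -0.83 in replicate 3 (1 of 19).

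Cdk1, the kinase that drives entry into mitosis, was at 31.9, 36.5 and 27.2 CPM in Control and 18.5, 12.6 and 10.8 CPM in Ginkgetin. The groups did not overlap (-1.36, SE 0.35, edgeR adjusted p = 0.187, and 0.00315 to 0.543 over 17 alternatives). Stmn1 was at 119, 121 and 85.2 CPM in Control and 66.7, 61.6 and 35.9 CPM in Ginkgetin, also without overlap (-1.14, SE 0.39, edgeR adjusted p = 0.29). Ube2c, a ubiquitin-conjugating enzyme that works with the anaphase-promoting complex, was at 21.9, 49.9 and 31.6 CPM against 19.4, 19.4 and 13.1 CPM, with every treated library below Control (-1.13, SE 0.41, edgeR adjusted p = 0.309). Birc5 (-1.16, SE 0.56) and Ccnb2 (-0.73, SE 0.40) overlapped between groups, as did Mki67 (-0.39, SE 0.37) and Top2a (-0.15, SE 0.40), with edgeR adjusted p of 0.438 to 0.946.

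Ccnd1 had the lowest adjusted p of any member in endothelial-like cells. It was at 166, 188 and 264 CPM in Control and 424, 392 and 491 CPM in Ginkgetin. Every treated library stood above every Control library (0.94, SE 0.17, edgeR adjusted p = 0.102, and 9.10e-05 to 0.386 over 17 alternatives). Ccnd2 was at 241, 214 and 305 CPM in Control and 447, 372 and 642 CPM in Ginkgetin, likewise without overlap (0.77, SE 0.20, edgeR adjusted p = 0.181). Ccnd3 was at 97.9, 84.9 and 108 CPM against 88.9, 92.9 and 97.3 CPM, with overlap (-0.21, SE 0.15, edgeR adjusted p = 0.622).

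Cdkn1a was at 217, 314 and 299 CPM in Control and 207, 124 and 151 CPM in Ginkgetin in endothelial-like cells, without overlap (-0.92, SE 0.30, edgeR adjusted p = 0.255). Cdkn1b (0.53, SE 0.26) and Cdkn2c (-0.05, SE 0.27) overlapped. Pcna, at 49.5, 60.3 and 51.2 CPM against 78.3, 66.6 and 71.1 CPM, did not overlap in CPM (0.26, SE 0.22, edgeR adjusted p = 0.7). Mcm5 (-0.10, SE 0.34), Mcm6 (-0.08, SE 0.25) and Rrm2 (-0.26, SE 0.64) were within their errors of 0, and Ccne2 did not pass the filter on low counts. The clusters that held endothelial-like cells differed between groups, as given above, and 8 of 13 macrophage markers were lower in Ginkgetin without overlap (a summed 89.6 to 297 CPM against 324 to 691 CPM), and their part was not tested.

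Whether the group effect differed between these classes was tested in a model with a term for each library and a class-by-group term on 41 members and 11697 genes in all. The term was called for 1 of the 41 members, a smaller share than the 4.91% of all genes, so that the count is no result about the members. The member was Cenpa, the centromeric histone H3. Its log2 fold change in macrophage-like cells minus that in endothelial-like cells was -1.0 (SE 0.25, edgeR adjusted p = 0.0429). Cenpa was at 43.6, 47.2 and 31.1 CPM in Control and 32.9, 23.5 and 26.5 CPM in Ginkgetin in macrophage-like cells (-0.89, SE 0.30), and at 56.5, 69.2 and 61.5 CPM in Control and 61.1, 83.2 and 82 CPM in Ginkgetin in endothelial-like cells (0.10, SE 0.20). The groups overlapped in both classes. The difference was no longer called without any one of Control replicates 1 to 3 or Ginkgetin replicates 2 and 3 (-1.09 to -0.87, edgeR adjusted p = 0.0578 to 0.148), and over 10 alternatives the adjusted p ran from 0.00532 to 0.711. For the other 40 members no difference between the classes was called, and 4 had an unadjusted p below 0.05.

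In T cell-like cells no member was called and none of 9884 genes (0.0%) by edgeR, nor was a member by DESeq2 (1.08% of all genes), with 4 members and 9.63% of all genes at an unadjusted p below 0.05 and 4 members without overlap, against 13.2%. Of the mitotic members 18 of 20 were above 0 (median 0.53, beside 0.02 for all genes, of which 51.7% were above 0), and of the S-phase members 10 of 12 (median 0.46). The mitotic direction rested on 1 library. The summed mitotic level was 687, 505 and 444 CPM in Control and 1315, 337 and 422 CPM in Ginkgetin, and without Ginkgetin replicate 1, 19 of the 20 mitotic members were below 0 with a median of -0.50. Mki67 was at 45.2, 34.8 and 38.3 CPM in Control and 105, 24.3 and 70.2 CPM in Ginkgetin, with overlap (0.72, SE 0.47, edgeR adjusted p = 0.669).

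Top2a in T cell-like cells was at 82.7, 53 and 49.8 CPM in Control and 166, 23.7 and 46.8 CPM in Ginkgetin, with Ginkgetin replicate 1 highest and replicate 2 lowest (0.37, SE 0.70, edgeR adjusted p = 0.901). Birc5 (0.60, SE 0.64), Ccnb2 (0.76, SE 0.74), Cdk1 (0.07, SE 0.69) and Stmn1 (0.17, SE 0.48) overlapped between groups too. Pcna was at 49.9, 53.5 and 49.5 CPM against 98.4, 48.7 and 103 CPM, with overlap through Ginkgetin replicate 2 (0.65, SE 0.27, edgeR adjusted p = 0.501). Mcm5 (0.63, SE 0.41), Mcm6 (0.08, SE 0.31), Rrm2 (0.46, SE 0.60) and Ccne2 (0.44, SE 0.60) overlapped as well.

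The 3 CDK inhibitors had values below 0 in T cell-like cells, none of them called. Cdkn1a was at 29.6, 46.4 and 25 CPM in Control and 22.3, 15.1 and 6.29 CPM in Ginkgetin, without overlap (-1.15, SE 0.57, edgeR adjusted p = 0.562). Cdkn2c was at 43.3, 46.9 and 24.2 CPM against 25.3, 14.8 and 12.6 CPM, with overlap (-1.11, SE 0.45, edgeR adjusted p = 0.501), and Cdkn1b did not differ beyond its spread (-0.10, SE 0.29). Ccnd2 (0.09, SE 0.26) and Ccnd3 (-0.40, SE 0.27) overlapped. Ccnd1, low in these cells, was at 1.63, 4.54 and 3.73 CPM against 4.66, 12.5 and 6.04 CPM, with every treated library above Control (1.31, SE 0.61, edgeR adjusted p = 0.54). In the same cells 9 of the 10 endothelial markers were higher in Ginkgetin without overlap, at a summed 223 to 1042 CPM against 73.2 to 91.4 CPM. Of the 13 macrophage markers 8 were lower without overlap, at a summed 165 to 297 CPM against 425 to 572 CPM, and so were 3 of the 8 T cell markers. Their part in the Ccnd1 and Cdkn1a values was not tested.

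In B cell-like cells the mitotic values rested on a few cells of Control. Their summed mitotic level was 326 to 408 CPM in Control and 106 to 125 CPM in Ginkgetin, but 114, 89.9 and 99.6 CPM against 96.3, 101 and 106 CPM, with overlap, when the clusters were made with all genes and the class held 5 fewer Control and 3 fewer Ginkgetin cells. No member and none of 7085 genes (0.0%) were called by edgeR, while 8 members and 13.3% of all genes had an unadjusted p below 0.05, and DESeq2 called 4 members against 0.508%. Of the 20 mitotic members 7 passed the filter on low counts, which a gene can pass through its high group alone, and 6 of these were called with the replicate block, all lower in Ginkgetin (Birc5, Stmn1, Top2a, Nusap1, Ccna2 and Ube2c), against 1.54% of all genes called lower. Stmn1 was at 96.9, 83.6 and 92 CPM in Control and 26.9, 21.7 and 13.7 CPM in Ginkgetin. The groups did not overlap, as for 8 of the 22 members that passed and 16.1% of all genes (-2.16, SE 0.38, edgeR adjusted p = 0.285, and 0.00101 to 0.739 over 17 alternatives).

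Birc5 in B cell-like cells was at 31.1, 37.6 and 24.9 CPM in Control and 4.25, 4.10 and 0.652 CPM in Ginkgetin, without overlap (-3.40, SE 0.60, edgeR adjusted p = 0.285). Top2a was at 30.2, 16.7 and 25.9 CPM against 7.09, 6.15 and 3.91 CPM (-2.16, SE 0.43, edgeR adjusted p = 0.285), and Nusap1, a spindle protein, at 13.7, 25.1 and 15.3 CPM against 0.00, 3.69 and 0.652 CPM (-3.17, SE 0.73, edgeR adjusted p = 0.285, and -5.27 to -2.57 with 1 library left out). Neither gene overlapped between groups. Ccna2, the cyclin of S and G2 phase, was at 11, 13.9 and 9.59 CPM against 2.84, 1.64 and 0.00 CPM, without overlap (-3.09, SE 0.77, edgeR adjusted p = 0.285). Ube2c was at 13.7, 37.6 and 42.2 CPM against 4.25, 6.56 and 0.00 CPM, also without overlap (-2.98, SE 0.85, edgeR adjusted p = 0.285). Cenpa, the other mitotic member that passed, overlapped (-0.11, SE 0.25), as did Pcna (0.16, SE 0.24), and the 8 S-phase members that passed had a median of -0.41. Ccnd1 was higher in every treated library, at 2.74, 2.79 and 5.75 CPM against 17, 16 and 10.4 CPM (1.87, SE 0.53, edgeR adjusted p = 0.285).

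Few B cell-like cells carried these genes. In cells thinned to 1000 UMIs, 4, 1 and 4 cells of Control and 1, 8 and 1 cells of Ginkgetin held UMIs of 2 or more mitotic members. With cell cycle genes left in the clustering, with the highest doublet scores removed, or in cells of 250 to 5000 UMIs, 2 mitotic members passed the filter on low counts, with medians of -0.14, -0.91 and -0.12. Endothelial markers were higher in these cells too (9 of 10 without overlap, a summed 302 to 1277 CPM against 138 to 166 CPM), and 5 of 13 macrophage markers were lower (a summed 113 to 301 CPM against 357 to 453 CPM), and their part was not tested.

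The remaining classes gave no call of a member by edgeR without the block, against 0.176% of 7947 genes in cholangiocyte-like cells and 0.0% in the others, except that 1 of 39 members was called in hepatocyte-like cells without the filter on low counts, against 1.44% of all genes. Dendritic-like cells had 17 of 20 mitotic members below 0 (median -0.63, beside 0.02 for all genes), none of 8599 genes called (0.0%) and no member called with the block, against 0.244% of all genes. Their Ginkgetin replicate 3 was low, at a summed 322 CPM against 1165 and 925 CPM in replicates 1 and 2 and 1241, 809 and 1397 CPM in Control, and without it the mitotic median was -0.16. In plasma cell-like cells 17 of 18 mitotic members were below 0 (median -0.47), again with none of 6539 genes called (0.0%), and the block called Cdc20, the activator of the anaphase-promoting complex, and Cdkn1a, both lower, against 0.872% of all genes called lower. Cdc20 was at 64, 78.7 and 27.3 CPM in Control and 40.4, 16 and 12.6 CPM in Ginkgetin, with overlap (-1.55, SE 0.38, edgeR adjusted p = 0.3).

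Cdkn1a had a value below 0 in 3 further classes. In stellate-like cells it was at 313, 172 and 60.6 CPM in Control and 77, 23.6 and 24.8 CPM in Ginkgetin, with overlap through Control replicate 3 (-2.28, SE 0.72, edgeR adjusted p = 0.857). Without the cluster led by Gsn it was at 14.7, 162 and 32.4 CPM in Control and 75.5, 20.9 and 3.18 CPM in Ginkgetin, also with overlap (-2.22, SE 1.05, edgeR adjusted p = 0.759, with Control replicate 1 left out of the fit for its 6 cells). In hepatocyte-like cells, of which Ginkgetin replicate 1 had none and replicate 2 had 12 with 41179 UMIs in all, it was at 174, 150.3 and 152 CPM in Control and 72.9 and 25.9 CPM in Ginkgetin replicates 2 and 3 (-2.19, SE 0.55, edgeR adjusted p = 0.245, and -2.99 to -1.34 with 1 library left out), without overlap. Such gaps were common in this class, where 849 of 4103 genes were higher and 719 lower without overlap, and 5 of 6 members lower. In plasma cell-like cells it was at 6.20, 37.8 and 14.9 CPM against 4.04, 13.1 and 1.20 CPM, with overlap (-1.88, SE 0.75, edgeR adjusted p = 0.37). The replicate block called each of the 3 as lower, against 0.254% of all genes called lower in stellate-like and 1.07% in hepatocyte-like cells. Blocking on barcode set kept the call in hepatocyte-like cells alone (edgeR adjusted p = 0.025, against 0.263 in stellate-like and 0.138 in plasma cell-like cells). Over all cells Cdkn1a was at 94, 165 and 136 CPM in Control and 97.4, 74.9 and 79.9 CPM in Ginkgetin, with overlap (-0.92, SE 0.29, edgeR adjusted p = 0.0743).

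The third comparison counted cells with mitotic UMIs. To make libraries of unequal depth comparable, each cell was thinned to 1000 UMIs, which left out 23 Control and 112 Ginkgetin cells, and the share of cells with UMIs of 2 or more different mitotic members, called the cycling share, was taken. Free RNA can give such UMIs too. In hepatocyte-like cells the share was 0.00% to 8.70%, the highest from 4 of 46 cells, and in stellate-like cells 0.00% to 3.85%, the highest from 1 of 26 cells, or from 1 of 6 (16.7%) without the cluster led by Gsn. The shares of macrophage-like, endothelial-like, T cell-like and all cells given next lie within the range of hepatocyte-like cells, whose top came from those 4 of 46 cells. Only dendritic-like and plasma cell-like cells, and the 6 stellate-like cells just named, reached above it. Pooled over libraries, 14 of 511 hepatocyte-like cells counted, beside 242 of 6758 macrophage-like, 205 of 5363 T cell-like and 113 of 6351 endothelial-like cells. Whether the hepatocyte-like UMIs were free RNA was not tested. The cycling share was 3.54%, 3.06% and 2.87% of all cells in Control replicates 1 to 3 and 4.07%, 2.24% and 2.21% in Ginkgetin. The groups overlapped, with means of 3.16% ± 0.35 and 2.84% ± 1.06 (SD, n = 3 each). The highest share was in Ginkgetin replicate 1, the library whose T cell-like cells stood apart.

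Between classes, dendritic-like (3.42% to 14.7% over the 6 libraries) and plasma cell-like cells (6.76% to 12%) had the highest shares, though libraries of both overlapped the highest hepatocyte-like one (8.70%), and with clusters made from all genes the share of plasma cell-like cells was 0.00% to 4.35% and that of endothelial-like cells 0.20% to 0.76%. B cell-like cells had 0.27% to 1.5%. In macrophage-like cells the share was 4.08%, 4.11% and 2.48% in Control and 2.67%, 3.62% and 4.32% in Ginkgetin, so that the groups overlapped. In endothelial-like cells it was 1.78%, 2.23% and 2.70% against 1.48%, 1.87% and 1.32%, with overlap between Control replicate 1 and Ginkgetin replicate 2, though it was lower in Ginkgetin in 3 of 3 same-numbered pairs (two-sided exact sign-flip permutation test, p = 0.25, the smallest that 3 pairs allow). The pairs that were lower numbered 2 of 3 in macrophage-like, T cell-like and all cells. In T cell-like cells it was 3.43%, 2.8% and 2.05% against 7.95%, 2.52% and 1.89%, with Ginkgetin replicate 1 alone above Control.

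Without thinning, the macrophage-like share was 15.9%, 12.2% and 19.7% in Control and 5.33%, 5.53% and 8.90% in Ginkgetin, groups that did not overlap and whose means differed by -9.34 percentage points, against -0.02 after thinning. Median UMIs per macrophage-like cell were higher in every Control library than in any Ginkgetin library, as given above. Over all cells the difference was -4.49 percentage points without thinning and -0.32 with it.

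**Figure D5:**
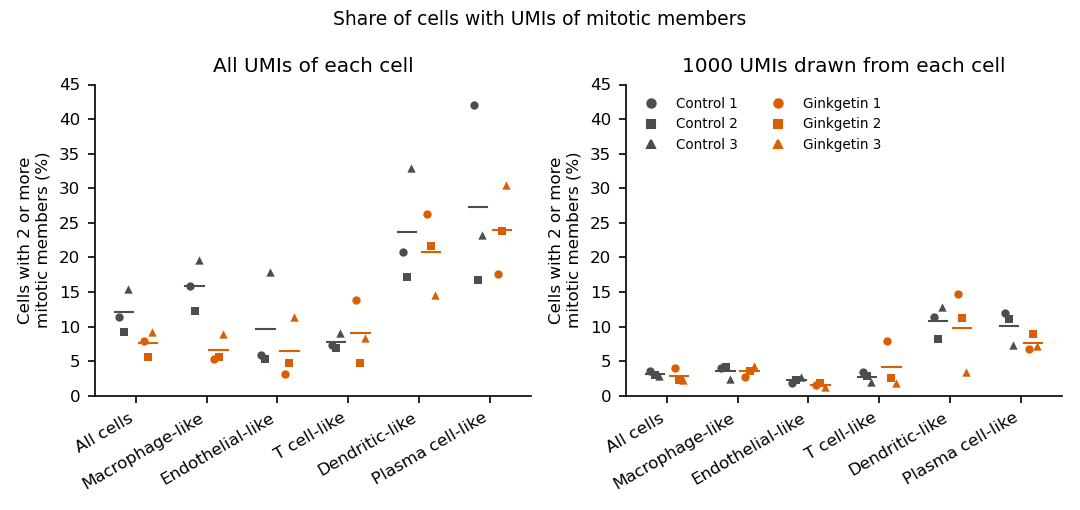
Percent of cells with UMIs of 2 or more different mitotic members for each library, from all UMIs of each cell (left) and after 1000 UMIs were drawn from each cell (right), with the group mean as a line. In macrophage-like cells the groups are apart on the left (12.2% to 19.7% against 5.33% to 8.90%) and overlap on the right.

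Mki67 alone also overlapped between groups. Of all cells thinned to 1000 UMIs, 1.16%, 0.90% and 1.46% held an Mki67 UMI in Control and 2.12%, 1.08% and 1.5% in Ginkgetin. The means differed by 0.39 percentage points (two-sided exact permutation test, p = 0.40, where 3 libraries against 3 cannot go below 0.10). Over the 10 tests, all cells and 9 classes, exact permutation p ran from 0.40 to 1.0, and each was 1.0 after Benjamini-Hochberg adjustment. Stellate-like cells held an Mki67 UMI in 2 of 73 thinned cells of Ginkgetin replicate 2 (2.74%) and in none of the other 5 libraries, from median depths of 4399 to 11464 UMIs. The shares over all cells lie below that 1 library and above the other 5, so a background level could not be set from them.

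Other cell cycle genes were set beside the members, from a list of 105 genes (32 of replication, 46 of mitosis and 27 other regulators). In macrophage-like cells 32 of 41 other mitotic genes and 25 of 30 other replication genes that passed the filter on low counts were below 0, with medians of -0.55 and -0.42. The 1 gene called there, against 4.34% of all genes tested, was E2f2, a transcription factor of S-phase genes, which rose (1.28, SE 0.23, edgeR adjusted p = 0.0354). With the replicate block E2f2 and the mitotic kinesin Kif23 were called higher, and 4 other mitotic genes (Cdca3, Cdca8, Cks1b and the kinetochore gene Ndc80) and Gadd45b lower, against 9.87% of all genes called and 4.29% called lower. In endothelial-like cells none was called, and 19 of 31 other mitotic genes were below 0 (median -0.22), while 11 of 18 other replication genes were above 0 (median 0.056). The replicate block called 2 of the mitotic genes there (Cdca8 and Cks1b) and 4 of the regulators (Myc, Gadd45a and the CDK inhibitors Cdkn1c and Cdkn2b), all lower, against 2.93% of all genes called lower. In T cell-like cells 29 of 37 were above 0 (median 0.44), with none called, nor with the block. Over all cells Gadd45b, a stress-induced gene, fell (-2.25, SE 0.54, edgeR adjusted p = 0.0339) and so did Gas2l3, a cytoskeletal protein of dividing cells (-1.84, SE 0.27, edgeR adjusted p = 0.00802), against 12.8% of all genes called, and the block called the replication gene Gins2 lower too, against 17.3% of all genes called. Knl1 and Sgo1 had UMIs in replicate 3 alone, where replicates 1 and 2 had them under the symbols Casc5 and Sgol1, and were not compared.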

How the data were processed

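Single-cell RNA-seq was measured in 6 libraries of liver non-parenchymal cells, 3 Control and 3 Ginkgetin. The authors deposited raw UMI counts per gene and cell barcode, per the labels and the values, without normalization. Builds GRCm38 and mm10 are named in the submitters' processing notes, and the counting version is not given in the sources used here. The study's stated filter of 250 to 5000 UMIs was read as genes detected, with less than 5% mitochondrial UMIs, and the other reading is an alternative.

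Cells were normalized, clustered (scanpy 1.11.5, leidenalg 0.10.2) without the 42 members and 105 further cell cycle genes, and named from fixed markers. Scrublet marked 0.028% to 0.695% of cells per library, too few to be trusted, so doublets were not removed. UMIs were summed per library and class, and genes with low counts were filtered by edgeR's filterByExpr. Group differences were fitted per class with edgeR 4.0.16 (TMM, quasi-likelihood test, R 4.3.3) over all genes, with Benjamini-Hochberg adjustment. DESeq2 1.42.0 was an alternative. The script was tested on simulated counts. CPM are UMIs scaled to 1000000 per library and class. Classes were compared by exact permutation tests over libraries.

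Replicates were numbered by the labels. Deviations of same-numbered libraries correlated in every pair (macrophage-like 0.296, 0.263 and 0.602, endothelial-like 0.407, 0.323 and 0.743, T cell-like 0.306, 0.180 and 0.594 for replicates 1, 2 and 3), so the numbers were taken to pair libraries, though replicates 1 and 2 correlated with each other's numbers too and replicate 3 has its own barcode set. Control replicate 2 correlated more with Ginkgetin replicate 1 than with its own number in endothelial-like (0.381) and T cell-like cells (0.290). The pairing of replicates 1 and 2 thus rests on the labels. At most 85 barcodes were shared by 2 libraries. Intervals of counting error are not given, since libraries are the replicates.

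By the rule for named genes, values were given for every called member (called by edgeR or with the replicate block) and, called or not, for Mki67, Top2a, Birc5, Cdk1, Ccnb2, Stmn1, Pcna, Mcm5, Mcm6, Rrm2, Ccne2, the D-type cyclins and the CDK inhibitors in macrophage-like, endothelial-like and T cell-like cells, the same genes could be named in other classes, and any member for its level across classes. Cenpa, the members called in a class with the block alone (Tyms, Tk1, Cenpe, Ccnb1, Ccna2, Ube2c, Nusap1 and Cdc20 among others), the members of that fixed list named outside those 3 classes, such as Ccnd1 and Pcna, and the other cell cycle genes were named after their values were seen. The members and lists were chosen with earlier results of these data known.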

Additional observations from a re-analysis of the deposited data

Results flagged for a closer look

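Cenpa was picked out because its log2 fold change differed between classes in a test of that difference: -0.89 in macrophage-like and 0.10 in endothelial-like cells, a difference of -1.0 (SE 0.25, edgeR adjusted p = 0.0429, and 0.00532 to 0.711 over 10 alternatives). It was 1 of 41 members, and 4.91% of all genes tested were called for this difference. Without Control replicate 1 it was -0.90 (adjusted p = 0.148), without Control replicate 2 -1.0 (0.123), without Control replicate 3 -1.09 (0.0578), without Ginkgetin replicate 2 -0.87 (0.107) and without Ginkgetin replicate 3 -0.88 (0.143). In cells of 250 to 5000 UMIs it was -0.34 (0.711).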

How the results depend on the processing

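Counts of called members depended on the model, and the percentage of all genes called in the same fit stands in parentheses. With the replicate block 7 members were called in macrophage-like (9.87%), 4 in endothelial-like (4.15%), 6 in B cell-like (2.26%), 2 in plasma cell-like (1.65%), 1 in stellate-like (0.53%) and 1 in hepatocyte-like cells (4.29%), and blocking on barcode set instead gave 7 (10.2%), 6 (4.41%), 6 (2.15%) and 1 (1.58%) in the first 4 of these and 1 in hepatocyte-like cells (3.24%), with none in stellate-like cells, where no gene was called. DESeq2 called 4 (8.31%), 1 (2.53%) and 4 members (0.508%) in macrophage-like, endothelial-like and B cell-like cells. Replicates 1 and 2 alone gave 6 (5.89%) and 3 (3.64%) in macrophage-like and endothelial-like cells and 1 over all cells (12.9%), all deposited barcodes 8 (6.86%) and 2 (1.13%), and no filter on genes 1 in hepatocyte-like cells (1.44%) and 1 over all cells (7.97%). Macrophage-like cells without monocyte-led clusters, an alternative chosen after seeing the data, gave 1 (10.5%), with Top2a at 0.25, Rrm2 at 0.49 and Cdkn2c at 0.094 turned above 0, and stellate-like cells without the cluster led by Gsn, also chosen after seeing the data, again gave 0 (0.0194%). In cells of 250 to 5000 UMIs edgeR called 0 members and 0 of 12131 genes over all cells. Leaving out 1 library gave 0 to 1 over all cells (4.14% to 10.8%), 0 to 1 for the difference between macrophage-like and endothelial-like cells (2.57% to 4.32%), and 0 in every single class (at most 0.152%, and no gene at all in most of these fits). With clusters made from all genes, chosen after seeing the data, 19 mitotic members were highest in dendritic-like and 0 in plasma cell-like cells.

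In cells of 250 to 5000 UMIs log2 fold changes of named members changed sign, and in macrophage-like cells Top2a was 1.26, Cdk1 0.38, Stmn1 0.47, Pcna 0.34, Mcm5 0.70, Rrm2 1.08, Ccnd2 -1.03 and Ccnd3 -0.44. In endothelial-like cells Mki67 was 0.51, Ccnb2 0.36, Mcm5 0.42, Mcm6 0.022 and Ccnd3 0.10 in the same setting, and in T cell-like cells Mki67 was -0.28, Top2a -0.20, Mcm5 -0.40 and Mcm6 -0.053. With the replicate block and the barcode-set block Top2a was 0.023 and 0.021 and Rrm2 0.22 and 0.21 in macrophage-like cells, and Cdk1 -0.20 and -0.025 in T cell-like cells, where Top2a was -0.061 with the replicate block and Cdk1 -0.013 with clusters made from all genes. In replicates 1 and 2 alone macrophage-like Mcm6 was -0.0083 and Ccne2 -0.42, endothelial-like Top2a 0.22, Mcm5 0.21 and Mcm6 0.16, and T cell-like Ccnd2 -0.15 and Cdkn1b 0.040. With all barcodes macrophage-like Mcm6 was -0.22, Ccne2 -0.39 and endothelial-like Cenpa -0.081, which was -0.031 with unnamed clusters added to their nearest class, an alternative chosen after seeing the data. Macrophage-like Ccne2 was -0.056 without the filter and -0.072 without the highest doublet scores, where endothelial-like Mki67 was 0.41 and Top2a 0.36.

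Leaving out 1 library turned the sign, with ranges in macrophage-like cells of -0.58 to 0.069 for Top2a, -0.090 to 0.32 for Mcm6, -0.65 to 0.055 for Rrm2, -0.35 to 0.33 for Ccne2, -0.74 to 0.014 for Cdkn1a and -0.54 to 0.20 for Cdkn2c. In endothelial-like cells they were -0.48 to 0.20 for Top2a, -0.36 to 0.15 for Mcm5, -0.25 to 0.075 for Mcm6, -0.70 to 0.19 for Rrm2, -0.25 to 0.093 for Cdkn2c and -0.017 to 0.26 for Cenpa. In T cell-like cells they were -0.99 to 0.79 for Top2a, -0.52 to 1.03 for Birc5, -1.20 to 0.51 for Cdk1, -0.49 to 1.25 for Ccnb2, -0.48 to 0.51 for Stmn1, -0.12 to 0.33 for Mcm6, -0.50 to 0.86 for Rrm2, -0.35 to 0.76 for Ccne2, -0.079 to 0.23 for Ccnd2 and -0.33 to 0.095 for Cdkn1b. Among members called with the block, values moved by over 1.5-fold in macrophage-like Birc5 (-2.44 without Ginkgetin replicate 1), in B cell-like Birc5 (-4.07 to -2.75), Nusap1 (-5.27 to -2.57), Ube2c (-4.38 without Ginkgetin replicate 2) and Ccna2 (-2.34 without Ginkgetin replicate 3), and in Cdkn1a of stellate-like (-2.93 to -1.63) and hepatocyte-like cells (-2.99 to -1.34, where a lone Ginkgetin library is assumed to vary like Control).

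The difference in the Mki67 share was -1.15 percentage points over all cells and -2.63 in macrophage-like cells without thinning, -0.11 in macrophage-like cells thinned to 500 UMIs, 0.22 in endothelial-like cells without the highest doublet scores and -0.37 in T cell-like cells of 250 to 5000 UMIs. Leaving out 1 library it was -0.13 to 0.72 in macrophage-like, -0.43 to 0.58 in endothelial-like and -0.057 to 1.46 in T cell-like cells. The cycling share differed by -4.49 over all cells and -9.34 in macrophage-like cells without thinning, by 1.69 in macrophage-like cells of 250 to 5000 UMIs, and in endothelial-like cells by -1.27 thinned to 2000 UMIs, -3.25 without thinning and -1.45 with all barcodes. In cells of 250 to 5000 UMIs 13 of 18 pairs of the 4 classes left passed for the D-type cyclins, where 108 pairs were tested before, and the log2 Ginkgetin over Control ratio of S-phase to mitotic UMIs was -0.13 in macrophage-like and 0.035 in B cell-like cells, where it was 0.041 with clusters made from all genes, also chosen after seeing the data. Apart from the number of classes, the cause of these changes was not tested. Small classes, 3 libraries a group and few UMIs per member limit what could be detected.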
